A study of Mus musculus with 4 samples.

Results

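Interferons are secreted antiviral signals. Type I and type III interferons bind cell surface receptors and, through JAK kinases, activate the transcription factor complex ISGF3, which includes STAT2 and IRF9 and binds the interferon-stimulated response element (ISRE) in its target genes. Those targets include sensors of viral nucleic acid, antiviral effectors and the machinery of MHC class I antigen presentation, which displays peptides from inside the cell to CD8 T cells. A low resting level of the same genes is kept in most tissues without infection, and in the cochlea resident macrophages lie among the fibrocytes, the stria and the nerve.

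The interferon response and MHC class I genes described here are a set of 35 named genes, found by their symbol among the 20777 rows of each expression table, and 35 of 35 had a value. They comprise 4 nucleic acid sensors, 6 genes of signalling and its control, 18 antiviral effectors, 1 chemokine and 6 genes of class I presentation. RNA from cochleae of C57BL/6 mice at postnatal day 10 was sequenced in 4 libraries, and the design compares wild type with a knockout of Zbtb20, a zinc finger transcription factor gene. Knockout replicate 2 is labelled Zbtb20 F/F with FoxG2-cre and knockout replicate 3 Zbtb20 F/F with FoxG3-cre. Wild-type replicate 2 is labelled Zbtb20 +/+ with FoxG2-cre and wild-type replicate 3 Zbtb20 +/+ with FoxG3-cre, so a cre driver is common to all 4 libraries and its name changes with the replicate number. Whether these names stand for separate drivers is not clear from the labels. The labels do not say in which cells the driver acts, how many animals entered a library or whether replicates are separate animals. A p-value here thus reflects spread among these libraries alone, which may be technical.

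Levels are given in FPKM, the deposited unit, which corrects fragment numbers for transcript length and library size, and summed to 391808 to 405144 per library. Depth, estimated from the low FPKM, was about 18050000 to 19250000 fragments. Zbtb20 was at 10.94 and 10.67 FPKM in wild type and 7.35 and 7.41 FPKM in knockout, a log2 fold change of -0.49 ± 0.08 (SE, n = 2 per group) between the means of log2(FPKM + 1), with adjusted p = 0.0394 (limma). All log2 fold changes are on that scale, knockout minus wild type. When genes of low FPKM were tested too, Zbtb20 was not called (adjusted p = 0.0766, limma). The Zbtb20 call was lost when any 1 library was left out (adjusted p from 0.083 to 0.316). The 14 cochlear marker genes were present in every library. In knockout 5 were higher and 2 lower (limma, adjusted p under 0.05), where 2.38% and 2.04% of all tested genes were. The 14 summed to 4915.3 and 4723.2 FPKM in wild type and 6916.7 and 6908.4 FPKM in knockout. The skeletal muscle list reached 516.6 summed FPKM in wild-type replicate 2 and 17.2 to 77.3 in the other 3 libraries, and 10 peripheral myelin genes fell in 10 of 10 cases, from 7157.5 and 3975.9 to 530.7 and 889.7 summed FPKM. In bulk RNA, fewer cells of a type and less RNA per cell cannot be told apart.

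Few interferon response and class I genes passed the test, while most were higher in both knockout libraries. Of the 32 members that could be tested, 1 rose in the knockout, Rtp4, and 0 fell (limma, adjusted p under 0.05), where 2.38% of all 13966 tested genes rose and 2.04% fell. Calls in either direction made up 4.43% of all tested genes. In this fit the members' share of 3.12% called higher is near that background and is not a result about the members. With the replicate number as a block, 9 of the 32 were called higher, where 9.75% of all tested genes were (limma). Whether equal replicate numbers mark pairs is not clear from the labels. In the main fit 14 of the 32 tested members were higher at an unadjusted p under 0.05 and 0 of the 32 were lower (limma). Of all tested genes 14.3% were higher and 7.74% lower at that threshold. The 14 became 9 after median-of-ratios rescaling (8.7% of all tested genes), 8 without knockout replicate 2 (6.83%) and 7 without knockout replicate 3 (7.46%). The median log2 fold change of the tested members was 0.27, beside 0.06 for all tested genes, and 27 of 32 lay above 0, as did 63.3% of all tested genes. Both knockout libraries lay above both wild-type libraries in 22 of the 32 members and below them in 0, where 37.9% and 17.1% of all tested genes did so. After each library was rescaled by its median of ratios these counts were 19 and 0, against 26.1% and 25.8% of all tested genes, and the split of all calls turned from 333 higher and 285 lower to 243 higher and 350 lower. The 3 members not tested (Mx1, Mx2 and Cxcl10) had means under 0.5 FPKM. Zbp1 (means of 0.365 FPKM in wild type and 0.7 in knockout) passed this filter through its knockout level and is among the 22. Cxcl10 (0.615 and 0.19 FPKM) missed it through its knockout level, with both knockout libraries below both wild-type libraries. These counts and medians thus describe the members that passed and not all 35. Without knockout replicate 2, and likewise without knockout replicate 3, 1 gene of all tested was called, and every gene named here as risen or fallen lost its call.

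**Figure D1:**
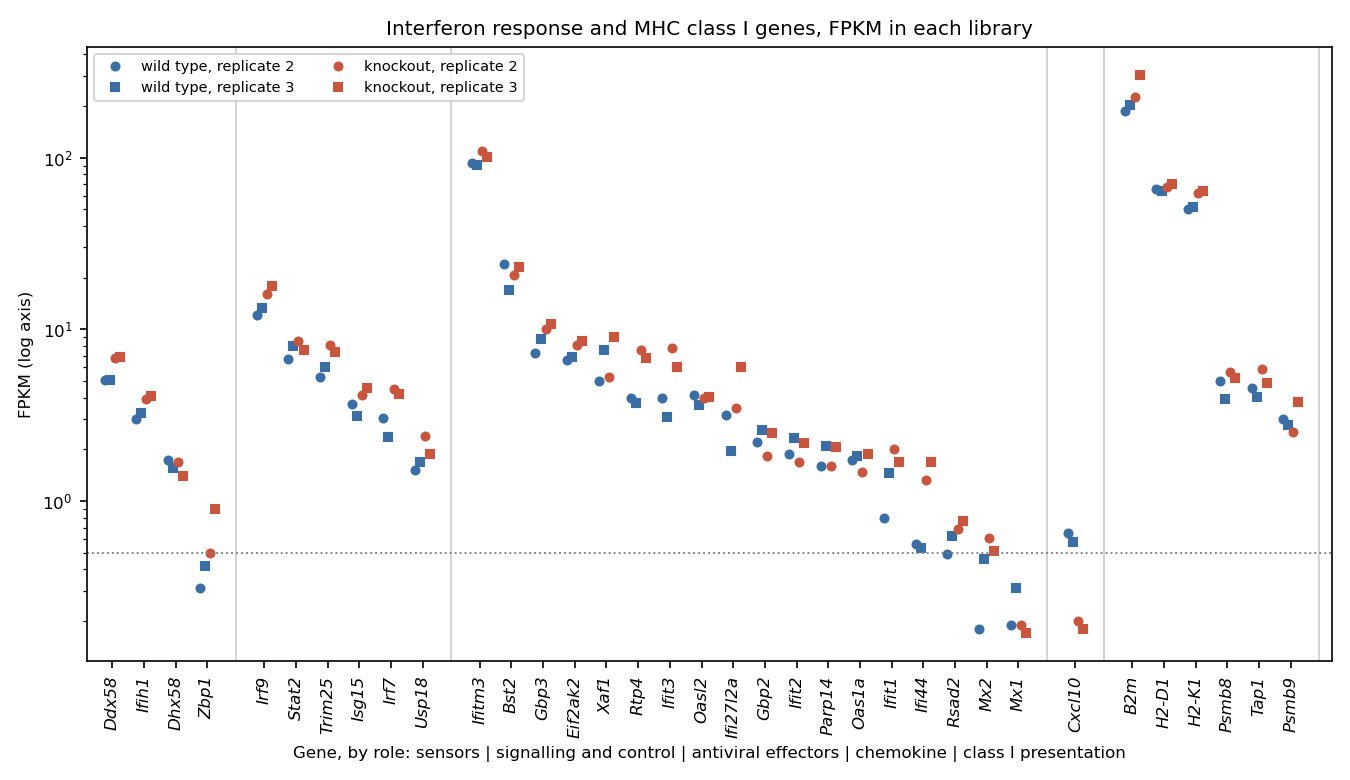
FPKM (log axis) of all 35 genes in each library, grouped by role, with wild type in blue, knockout in red, replicate 2 as circles, replicate 3 as squares and the filter at a mean of 0.5 FPKM as a dotted line. B2m and Ifitm3 stand highest, and Cxcl10 and Mx1 lie lowest in the knockout, at 0.17 to 0.2 FPKM.

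Most of the transcript came from a few genes. B2m, Ifitm3, H2-D1 and H2-K1 together held 75.7% to 77.2% of the summed FPKM of the 35 genes in each library. The other 31 members summed to 123.5 and 120.9 FPKM in wild type and 149.6 and 158.7 FPKM in knockout. All 35 together summed to 519 and 529 FPKM in wild type and 615 and 697 FPKM in knockout.

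The ISRE core was looked for in the promoters of these genes because it is the element that ISGF3 and related factors bind. Of the 35 members 27 had a promoter in the RefSeq table (GRCm38.p6, 250 bases before to 50 after a transcript start), and 15 of the 27 held the core (GAAA, any 2 bases, then GAAA) on either strand, against 3.99% of all 27025 genes in that table. The GAS element TTCNNNGAA, which reads the same on both strands and is bound by STAT dimers, was in 6 of the 27 and in 9.55% of all genes. A match is a description of the letters and not a shown binding site. The members without an entry were Dhx58, Zbp1, Usp18, Mx1, Mx2, Parp14, Rtp4 and Ifi27l2a. The 5 promoters below are shown for the arrangement of the element, with the ISRE core in capitals, read 5′ to 3′ along the gene's strand, where TTTC runs mark the core on the opposite strand. Ifit3 (chr19:34583279-34583578, plus strand) and its neighbour Ifit1 (chr19:34640639-34640938, plus strand) each hold 2 separate copies, lying from -156 to -113 and from -104 to -76 relative to the start. Isg15 (chr4:156200769-156201068, minus strand) holds 3 overlapping copies from -78 to -57, Ddx58 (chr4:40239776-40240075, minus strand) holds 1 just after its start, at 3 to 12, and B2m (chr2:122147437-122147736, plus strand) holds 1 at -139 to -130.
Ifit3: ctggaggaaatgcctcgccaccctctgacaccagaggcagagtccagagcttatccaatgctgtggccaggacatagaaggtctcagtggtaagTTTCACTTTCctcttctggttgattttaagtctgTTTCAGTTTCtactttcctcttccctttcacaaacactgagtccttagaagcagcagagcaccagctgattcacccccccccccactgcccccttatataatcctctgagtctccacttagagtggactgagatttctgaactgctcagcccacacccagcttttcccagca
Ifit1: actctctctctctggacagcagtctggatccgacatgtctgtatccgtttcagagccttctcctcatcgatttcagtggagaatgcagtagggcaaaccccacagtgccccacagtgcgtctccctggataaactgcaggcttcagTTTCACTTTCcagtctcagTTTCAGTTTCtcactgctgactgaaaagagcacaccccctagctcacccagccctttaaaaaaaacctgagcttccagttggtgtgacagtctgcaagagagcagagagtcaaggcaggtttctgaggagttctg
Isg15: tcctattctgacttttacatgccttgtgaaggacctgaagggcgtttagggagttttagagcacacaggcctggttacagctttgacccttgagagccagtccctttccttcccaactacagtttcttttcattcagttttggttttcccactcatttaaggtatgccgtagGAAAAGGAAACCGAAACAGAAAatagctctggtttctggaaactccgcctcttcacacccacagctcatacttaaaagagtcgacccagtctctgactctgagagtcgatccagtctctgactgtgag
Ddx58: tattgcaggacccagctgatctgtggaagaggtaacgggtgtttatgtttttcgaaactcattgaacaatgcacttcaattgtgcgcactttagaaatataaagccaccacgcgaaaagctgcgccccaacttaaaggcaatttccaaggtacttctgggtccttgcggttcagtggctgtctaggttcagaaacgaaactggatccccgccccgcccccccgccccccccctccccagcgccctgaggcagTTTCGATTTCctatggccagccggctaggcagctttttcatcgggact
B2m: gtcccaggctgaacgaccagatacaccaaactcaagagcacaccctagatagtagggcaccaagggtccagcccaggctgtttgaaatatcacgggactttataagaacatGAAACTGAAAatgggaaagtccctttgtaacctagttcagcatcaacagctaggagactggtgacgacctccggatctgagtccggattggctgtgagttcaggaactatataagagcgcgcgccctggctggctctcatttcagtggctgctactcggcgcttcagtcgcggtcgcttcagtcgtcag

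Members with and without the core had similar medians. The 14 tested members with it had a median log2 fold change of 0.27, and the 12 tested members with a promoter but without it had 0.25. Ifi44 and Irf7, with log2 fold changes of 0.69 and 0.54, had no match in this window, while Oas1a, with 2 matches, was at -0.05.

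Among the 4 sensors 0 passed the test (limma, 2 at an unadjusted p under 0.05, both higher). Ddx58, which encodes RIG-I, a cytosolic sensor of RNA with a 5′ triphosphate, was at 5.08 and 5.05 FPKM in wild-type replicates 2 and 3 and at 6.85 and 6.86 FPKM in knockout replicates 2 and 3. The libraries of each genotype lay close together and the groups did not overlap, with a log2 fold change of 0.37 ± 0.09 (SE, n = 2 per group, adjusted p = 0.0883, limma). It lies on chromosome 4 from 40203777 to 40239825 of GRCm38.p6, whose primary sequence is that of mm10, and positions of the other genes are on the same assembly.

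Ifih1, which encodes MDA5, a sensor of long double-stranded RNA, was at 2.99 and 3.25 FPKM in wild type and 3.95 and 4.12 FPKM in knockout (log2 fold change 0.29 ± 0.1, adjusted p = 0.188, limma). Both knockout values lay above both wild-type values. Dhx58, which encodes LGP2, a relative of RIG-I without signalling domains that modulates the other sensors, was at 1.74 and 1.55 FPKM in wild type and 1.68 and 1.4 FPKM in knockout. Its groups overlapped, and its log2 fold change was -0.06 ± 0.13. Zbp1, a sensor of Z-form nucleic acid that can start necroptosis, was at 0.31 and 0.42 FPKM in wild type and 0.5 and 0.9 FPKM in knockout, where knockout replicate 3 stood apart from the other 3 libraries. At the estimated depth these levels stand for about 7.7, 11, 12 and 24 fragments, so counting error alone is large for this gene.

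Of the 6 genes of signalling and its control 0 passed (limma, 3 at an unadjusted p under 0.05, all higher), and in 5 of the 6 both knockout libraries lay above both wild-type libraries, as in 37.9% of all tested genes. Irf9, the DNA-binding subunit of ISGF3, was the most abundant at 12.17 and 13.32 FPKM in wild type and 16.17 and 17.97 FPKM in knockout. Its log2 fold change was 0.39 ± 0.09 (adjusted p = 0.0908, limma). Stat2, its partner in the complex, was at 6.73 and 7.96 FPKM in wild type and 8.54 and 7.54 FPKM in knockout. The genotypes overlapped for Stat2 (0.12 ± 0.12), the lowest log2 fold change of the 6.

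Irf7, the factor that amplifies interferon alpha production once interferon signalling has begun, was at 3.03 and 2.37 FPKM in wild type and 4.51 and 4.2 FPKM in knockout. It had the highest log2 fold change of the 6, at 0.54 ± 0.13 (adjusted p = 0.0925, limma), and lies on chromosome 7 from 141263183 to 141266499. Trim25, a ubiquitin ligase of the RIG-I pathway, was at 5.28 and 6.05 FPKM in wild type and 8.15 and 7.38 FPKM in knockout, without overlap (0.4 ± 0.11, adjusted p = 0.117, limma). Isg15, a ubiquitin-like protein joined to other proteins during the response, was at 3.68 and 3.15 against 4.17 and 4.55 FPKM. Usp18, which removes ISG15 and dampens the type I receptor, was at 1.52 and 1.68 against 2.39 and 1.89 FPKM. The log2 fold changes of Isg15 and Usp18 were 0.28 ± 0.11 and 0.27 ± 0.13, and neither passed.

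The antiviral effectors held the single called member and also the widest range. Rtp4, a transmembrane chaperone gene that interferon induces, was at 3.97 and 3.74 FPKM in wild type and 7.57 and 6.8 FPKM in knockout. Both knockout libraries lay near the same level, and the rise was 1.86-fold in mean FPKM, with a log2 fold change of 0.75 ± 0.1 (SE, n = 2 per group, adjusted p = 0.0241, limma). It lies on chromosome 16 from 23520219 to 23614222, and 13.9% of its exon bases are shared with Gm45338 on the same strand. The Rtp4 call was kept without wild-type replicate 2 (adjusted p = 0.0394, limma) and lost without wild-type replicate 3 (0.0525), knockout replicate 2 (0.266) or knockout replicate 3 (0.181). It was also lost without the filter on low values (0.0674) and, without wild-type replicate 2, when the genes kept over all 4 libraries were tested (0.0579).

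Ifit3, of the family that binds foreign RNA and holds back its translation, had the highest log2 fold change of the 32, at 0.8 ± 0.16. It was at 4 and 3.08 FPKM in wild type and 7.8 and 6.04 FPKM in knockout, without overlap, and did not pass (adjusted p = 0.0634, limma). With 1 library left out its log2 fold change ran from 0.64 to 0.96 and its adjusted p from 0.0475, without wild-type replicate 2, to 0.382, without knockout replicate 2. With the genes kept over all 4 libraries, its adjusted p without wild-type replicate 2 was 0.0706. Its near-identical neighbour Ifit3b can take fragments from it, and the sum of Ifit3 and Ifit3b was 5.2 and 4.68 FPKM in wild type and 10.71 and 8.58 FPKM in knockout. Ifit1 was at 0.8 and 1.46 FPKM in wild type and 2 and 1.69 FPKM in knockout, with wild-type replicate 2 lowest (0.43 ± 0.19). Ifit2, the third family member here, was at 1.88 and 2.34 against 1.69 and 2.17 FPKM, and its groups overlapped (-0.09 ± 0.15).

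Ifi44, an interferon-induced cytoplasmic protein gene, had the highest ratio of mean FPKM among the tested members, at 2.76. It was at 0.56 and 0.53 FPKM in wild type and 1.32 and 1.69 FPKM in knockout, about 29 and 29 against 69 and 95 fragments at the estimated depth (log2 fold change 0.69 ± 0.14, adjusted p = 0.0604, limma). Ifi27l2a, another interferon-induced gene, was at 3.16 and 1.95 FPKM in wild type and 3.49 and 6.03 FPKM in knockout. Knockout replicate 3 was high there and knockout replicate 2 lay close to wild-type replicate 2 (0.68 ± 0.27, adjusted p = 0.226, limma).

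Ifitm3, which blocks fusion of entering viruses, was the most abundant effector at 92.88 and 90.67 FPKM in wild type and 109.53 and 100.32 FPKM in knockout, with a log2 fold change of 0.19 ± 0.07. Bst2, the tetherin gene, whose product holds budding virions on the cell surface, was at 23.91 and 16.86 against 20.68 and 23.08 FPKM. Its genotypes overlapped, with the highest value in wild-type replicate 2. Eif2ak2, which encodes PKR, a kinase that halts translation on double-stranded RNA, was at 6.63 and 6.89 against 8.15 and 8.53 FPKM (0.27 ± 0.09, adjusted p = 0.163, limma). Gbp3, a guanylate-binding GTPase of cell-autonomous defence, was at 7.3 and 8.74 against 10.06 and 10.77 FPKM, while Gbp2 of the same family was at 2.2 and 2.61 against 1.82 and 2.48 FPKM. Gbp3 had a log2 fold change of 0.34 ± 0.11 and Gbp2 of -0.12 ± 0.15, the lowest of the 32. Whether these family members differ from each other in their response was not tested.

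Xaf1, a gene linked to apoptosis, was higher in replicate 3 than in replicate 2 of each genotype, at 5.01 and 7.62 FPKM in wild type and 5.31 and 9.07 FPKM in knockout. Oas1a and Oasl2, of the family of 2′-5′ oligoadenylate synthetases that activate RNase L, lay at 1.48 to 1.89 and at 3.64 to 4.13 FPKM, with overlapping genotypes. Parp14, an ADP-ribosyltransferase gene, lay at 1.6 to 2.09 FPKM and had a log2 fold change of -0.01 ± 0.15. Rsad2, which encodes viperin, was at 0.49 and 0.63 against 0.69 and 0.77 FPKM (0.15 ± 0.13). Mx1 and Mx2, dynamin-like GTPase genes, were not tested: Mx1, of which C57BL/6 is known to carry a defective allele, was at 0.17 to 0.31 FPKM, and Mx2 at 0.18 and 0.46 FPKM in wild type and 0.61 and 0.51 FPKM in knockout.

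Cxcl10, the chemokine that draws T cells and NK cells bearing CXCR3, was the single member of the 35 in which both knockout libraries lay below both wild-type libraries. It was at 0.65 and 0.58 FPKM in wild type and 0.2 and 0.18 FPKM in knockout, 0.309 times the wild-type mean. At the estimated depth this is about 13 and 12 fragments against 3.9 and 3.8, so counting error alone is large for this gene too. It fell under the filter and was tested only with no filter, where its log2 fold change was -0.44 ± 0.06 (adjusted p = 0.0558, limma). That SE comes from the spread among libraries and not from the fragment numbers, so it can understate the error of so low a gene. Of its exon bases 5.9% overlap Art3 on the other strand.

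**Figure D2:**
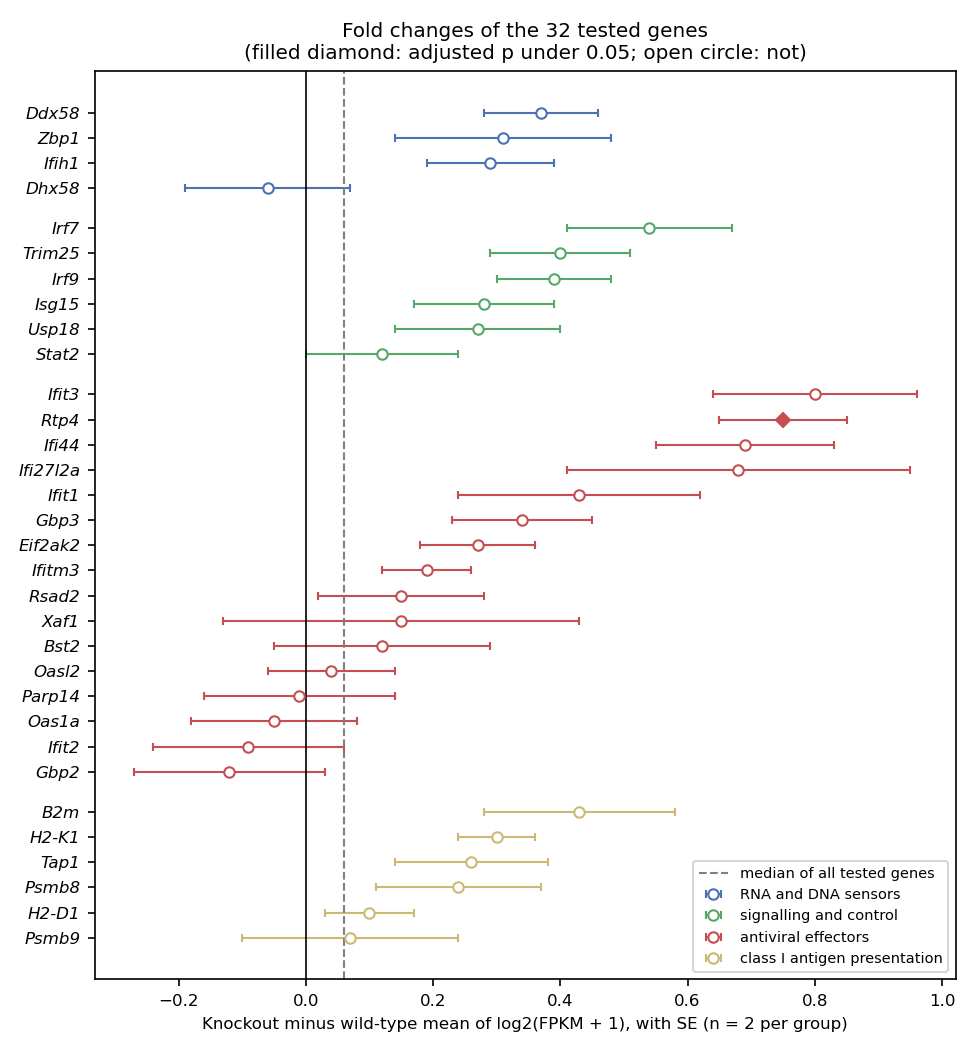
Knockout minus wild-type mean of log2(FPKM + 1) for the 32 tested genes, coloured by role, with SE (n = 2 per group). The dashed line is the median of all tested genes (0.06), the filled diamond is Rtp4 at 0.75, and the points run from Gbp2 at -0.12 to Ifit3 at 0.8.

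Of the 6 class I presentation genes 0 passed (limma, 2 at an unadjusted p under 0.05, both higher). In 5 of the 6 both knockout libraries lay above both wild-type libraries, and in 2 of the 6 after median-of-ratios rescaling (37.9% and 26.1% of all tested genes). B2m, the light chain shared by all class I molecules, was the most abundant member at 186.92 and 201.97 FPKM in wild type and 225.54 and 303.71 FPKM in knockout. Knockout replicate 3 stood above the other 3 libraries, and the log2 fold change was 0.43 ± 0.15 (adjusted p = 0.19, limma). Without knockout replicate 3 it was 0.21.

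The heavy chain gene H2-K1 was at 50.46 and 51.5 FPKM in wild type and 62.33 and 64.05 FPKM in knockout, without overlap (log2 fold change 0.3 ± 0.06, adjusted p = 0.0719, limma). H2-D1, the other classical heavy chain of this strain, was at 65.39 and 63.66 against 67.67 and 70.61 FPKM (0.1 ± 0.07). RSEM, which divides shared fragments by estimation, is named by the submitters without a role. Class I heavy chain genes are alike in sequence, so the split of fragments between H2-K1 and H2-D1 is uncertain. Their sum was 115.9 and 115.2 FPKM in wild type and 130.0 and 134.7 FPKM in knockout. H2-K1 lies on chromosome 17 from 33996012 to 34000619 and H2-D1 on the same chromosome from 35263094 to 35267497.

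Tap1, a subunit of the transporter that brings peptides into the endoplasmic reticulum, was at 4.57 and 4.04 FPKM in wild type and 5.84 and 4.87 FPKM in knockout (0.26 ± 0.12). Psmb8 and Psmb9 encode interferon-inducible catalytic subunits that replace PSMB5 and PSMB6 in the immunoproteasome. Psmb8 was at 5.01 and 3.91 against 5.66 and 5.22 FPKM, and Psmb9 at 3.02 and 2.78 against 2.53 and 3.77 FPKM. Neither passed, at 0.24 ± 0.13 and 0.07 ± 0.17. As a share of its constitutive partner Psmb5, Psmb8 stood at 5.53% and 4.99% in wild type and 6.67% and 6.13% in knockout, and Psmb9 at 3.5% and 3.36% against 2.99% and 4.85% of Psmb6. Psmb10, the remaining inducible subunit, was at 14.3% to 15.1% of Psmb7 in the 4 libraries. Tap1 and Psmb9 lie head to head with 212 shared exon bases, and 14.7% of the exon bases of Psmb8 overlap Gm20496 on the other strand. No source used here states whether strand was counted, so fragments of such pairs may be shared.

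**Figure D3:**
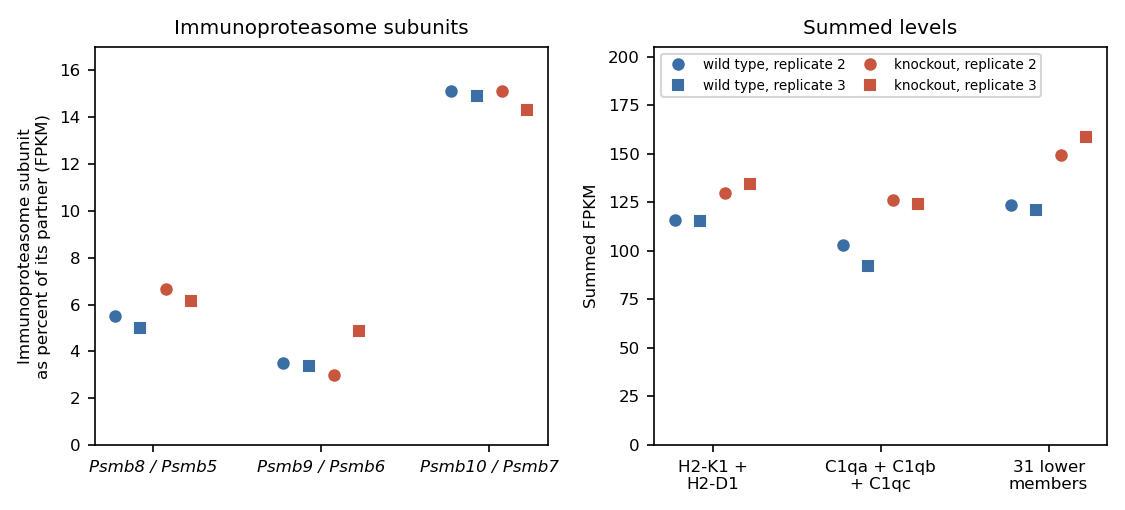
Left, FPKM of each inducible proteasome subunit as a percent of its constitutive partner; right, summed FPKM of H2-K1 with H2-D1, of the 3 C1q macrophage genes and of the 31 members below the 4 most abundant, with wild type in blue, knockout in red, replicate 2 as circles and replicate 3 as squares. In all 3 sums both knockout libraries lie above both wild-type libraries, and Psmb10 keeps a share of 14.3% to 15.1%.

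Of the receptor and induction genes 0 passed, and few interferon genes had a value. Of 10 interferon genes 7 had no value, and the other 3 (Ifna1, Ifnk and Ifne) were listed at 0 to 0.24 FPKM, with Ifnk at 0.24 FPKM in knockout replicate 3. In the list of receptors and JAK-STAT genes 0 of 16 passed (limma, 1 at an unadjusted p under 0.05), with a median log2 fold change of 0.08. Ifnlr1, the specific chain of the type III interferon receptor, was at 2.27 and 2.31 FPKM in wild type and 3.24 and 3.24 FPKM in knockout (0.37 ± 0.1, adjusted p = 0.123, limma). Ifnar1, a chain of the type I receptor, had a log2 fold change of 0.16 ± 0.08 and the kinase gene Jak2 of 0.11 ± 0.07.

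Of 19 tested genes that lead to interferon induction 0 passed (limma, 0 at an unadjusted p under 0.05), with a median of 0.01. The list holds adaptors, Toll-like receptors and transcription factors, and 10 lay above 0 and 9 below. The inhibitor gene Nfkbia was at -0.14 ± 0.07, the macrophage and dendritic cell factor Irf8 at -0.25 ± 0.14 and the adaptor gene Myd88 at -0.19 ± 0.11. Of 8 constitutive proteasome genes 0 passed (limma, 1 at an unadjusted p under 0.05), with a median of 0.07. Their lowest p-values belonged to Psma1 (0.21 ± 0.07), Psma3 (0.16 ± 0.07) and Psmb7 (0.09 ± 0.08).

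Among 59 other interferon-stimulated genes tested 1 rose, Ly6e, and 0 fell, or 1.69%, near the 2.38% of all tested genes. At an unadjusted p under 0.05, 14 of the 59 were higher and 1 lower (limma), where 14.3% and 7.74% of all tested genes were. Ly6e, which encodes a lipid-anchored surface protein, was at 81.85 and 76.89 FPKM in wild type and 111.46 and 123.62 FPKM in knockout (0.56 ± 0.08, adjusted p = 0.0305, limma). The list had a median of 0.13, and both knockout libraries lay above both wild-type libraries in 31 of the 59, or 52.5% where all tested genes had 37.9% (27 of 59 after rescaling, where all had 26.1%). They lay below in 2, Isg20 (-0.39 ± 0.15) and Znfx1 (-0.29 ± 0.11), where 17.1% of all tested genes did so. After rescaling they lay below in 6 of 59, where all had 25.8%. Gbp8 (means of 0.46 FPKM in wild type and 0.975 in knockout) passed the filter through its knockout level. Ccl5 (0.735 and 0.235 FPKM) missed it through its knockout level. Nmi, a partner of STAT proteins, was at 8.04 and 7.52 against 10.93 and 12.9 FPKM, and Gbp9 at 2.85 and 3.11 against 4.85 and 4.59 FPKM. Both had adjusted p = 0.0582 (limma). The Ly6e call was kept without wild-type replicate 2 (0.0467, but 0.0654 when the genes kept over all 4 libraries were tested) and lost without wild-type replicate 3 (0.0753) or without the filter on low values (0.0673).

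In the list of other class I presentation genes 3 of 20 rose and 0 fell (limma), or 15% higher, where 2.38% of all tested genes rose. Each of the 3 encodes a nonclassical or class I-like molecule. At an unadjusted p under 0.05, 8 of the 20 were higher and 1 lower (limma), where 14.3% and 7.74% of all tested genes were. Mr1, which presents microbial vitamin B metabolites to MAIT cells, was at 10.87 and 11.36 FPKM in wild type and 17.27 and 17.08 FPKM in knockout, a 1.55-fold rise (0.59 ± 0.08, adjusted p = 0.0229). H2-T23, the Qa-1 heavy chain that engages inhibitory receptors of NK cells, was at 46.65 and 42.55 against 65.22 and 61.96 FPKM (0.5 ± 0.08, adjusted p = 0.0344, limma). Cd1d1, which presents lipids to NKT cells, was at 4.77 and 4.78 against 8.16 and 7.25 FPKM (0.59 ± 0.1, adjusted p = 0.0412, limma). After median-of-ratios rescaling Mr1 passed (0.0315) and H2-T23 and Cd1d1 did not (0.0614 and 0.0595). Of the 3, H2-T23 alone was called without wild-type replicate 2 (0.0432) and Mr1 alone without wild-type replicate 3 (0.0433) or without the filter on low values (0.0471). With the genes kept over all 4 libraries, H2-T23 was not called without wild-type replicate 2 (0.0578).

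Markers of macrophages also lay mostly higher in the knockout. The 16 macrophage and microglia genes reached 263 and 250.9 summed FPKM in wild type and 313.1 and 322.5 FPKM in knockout. Of the 16, 1 rose and 0 fell (limma), or 6.25% higher where 2.38% of all tested genes rose, and 1 gene is not a result about the list. It was the mannose receptor gene Mrc1 (8.28 and 8.28 against 12.06 and 12.75 FPKM, 0.53 ± 0.08, adjusted p = 0.0335, limma). The Mrc1 call was lost without the filter on low values (adjusted p = 0.0704, limma). Without either wild-type replicate Mrc1 lost its call (0.0693 and 0.0751). At an unadjusted p under 0.05, 8 of the 16 were higher and 0 lower (limma), where 14.3% and 7.74% of all tested genes were. The list had a median log2 fold change of 0.24, and 16 of 16 lay above 0, as did 63.3% of all tested genes. After rescaling the median was 0.17 and 14 of 16 lay above 0. Both knockout libraries lay above both wild-type libraries in 12 of the 16, and in 10 after rescaling, where 37.9% and 26.1% of all tested genes did so. Together the complement genes C1qa, C1qb and C1qc held 103.2 and 92.3 FPKM in wild type and 126.1 and 124.2 FPKM in knockout, and the leukocyte gene Ptprc had 0.05 ± 0.13. The part of macrophage RNA in the interferon and class I values was not tested.

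Class II, vascular, neutrophil and erythroid markers had medians below 0. The 6 tested MHC class II genes had a median of -0.26 with 0 calls (limma, 0 at an unadjusted p under 0.05). The class II list summed to 46.6 and 34.0 FPKM in wild type and 33.8 and 38.5 FPKM in knockout, so the genotypes overlapped. With 1 library left out its median ran from -0.51 to -0.03, the latter when wild-type replicate 2 was removed. The 10 endothelial genes had a median of -0.04 with 0 calls (limma, 1 at an unadjusted p under 0.05, lower). Among 7 tested neutrophil and marrow genes 1, S100a9, fell (-1.35 ± 0.18, adjusted p = 0.0235, limma), where 2.04% of all tested genes fell. The S100a9 call was lost without the filter on low values (adjusted p = 0.0704, limma). The neutrophil list summed to 15.2 and 19 FPKM in wild type and 6.3 and 7.7 FPKM in knockout. Medians of these lists cover the genes that passed the filter. With no filter the neutrophil median was -0.4 over 10 genes, where it was -0.64 over 7, and the class II median was -0.15 over 8. The erythroid genes had sums of 1261.9 and 913.9 FPKM in wild type and 770.4 and 686.6 FPKM in knockout. Lymphocyte markers were scarce, with 12 genes summing to 3.8 to 5.2 FPKM, of which 3 could be tested and 0 passed. The 6 plasmacytoid dendritic cell markers summed to 17.7 to 19.3 FPKM, nearly all of it from Tcf4 (17.02 to 18.16 FPKM), which other cells share, and Siglech was at 0.43 to 0.63 FPKM. No gene of the cell lists with a value was at 0 in all 4 libraries.

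**Figure D4:**
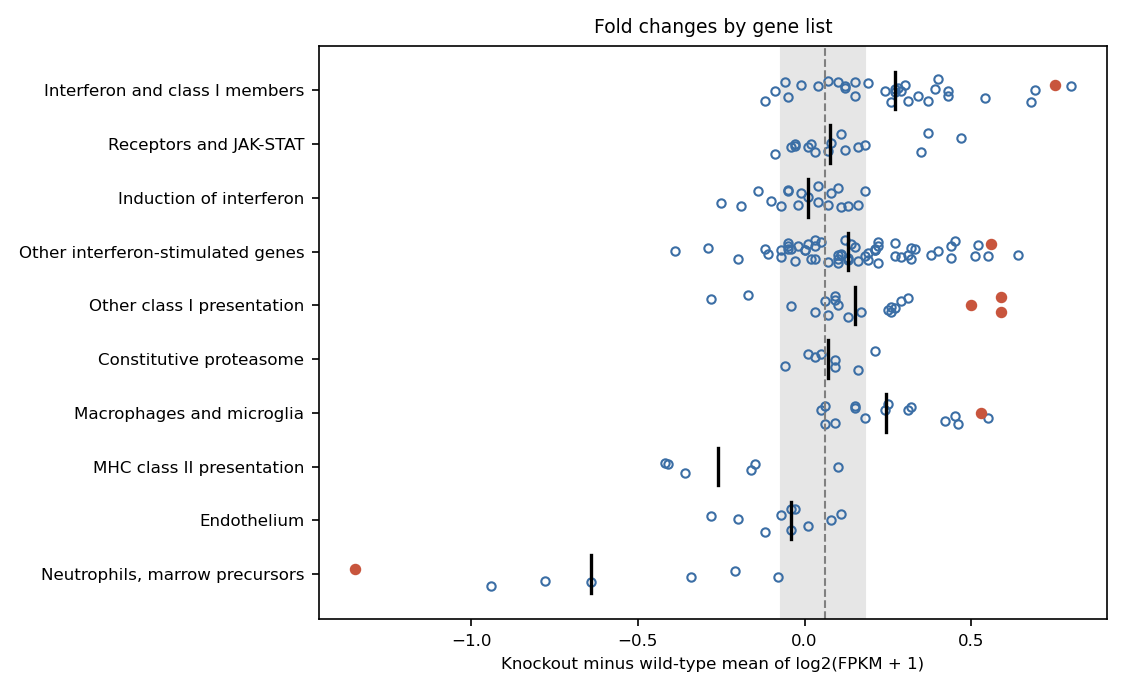
Knockout minus wild-type mean of log2(FPKM + 1) for each tested gene of 10 lists, with filled red points at adjusted p under 0.05, a black bar at the list median, a dashed line at the median of all tested genes and a band over their middle quartiles (-0.07 to 0.18). The member median (0.27) and the macrophage median (0.24) lie to the right of the band. The neutrophil median over its 7 tested genes lies to the left at -0.64, and was -0.4 over 10 genes with no filter.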

How the data were processed

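RNA from P10 cochleae was measured in 2 wild-type and 2 knockout libraries. The authors deposited FPKM per gene, rounded to 2 decimals, per the file headers. HISAT2 2.0.4, Bowtie2 2.2.5, RSEM 1.2.12 and mm10 are named without roles, per the submitters' processing notes. Each library's own column was used, and 4 columns repeating wild-type replicate 2 were not. Of 20777 rows, 17816 had values. The 13966 genes whose mean reached 0.5 FPKM were fitted on log2(FPKM + 1) with limma 3.58.1 in R 4.3.3 (genotype term, intensity trend), with Benjamini-Hochberg adjustment over all of them, two-sided, at 0.05. The pseudocount of 1 understates changes of low genes. The fit was run on simulated libraries with independent noise. These lacked the correlation of replicate differences between genotypes seen here, so they do not show how the fit behaves on these data. Depth was sought as the value making most low FPKM whole fragments within 0.15, which held for 65.4% to 68.5% of values where chance gives 30%, too few for counts to be recovered. Fragment numbers use the mean GENCODE vM21 transcript length and cover counting error only. Between replicates, 207 (wild type) and 68 (knockout) of 13044 genes differed over 2-fold. A few genes of the lists enter the counts and sums and are not reported here. Members and lists were chosen with earlier results of these data known. Genes outside the members were named if called or among the 3 lowest p-values of their list, and others, with the shown promoters, after their values were seen. Alternatives were pseudocounts of 0.1 and 0.5, no filter, a filter at 2 FPKM, median-of-ratios rescaling, each library left out and a replicate block.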

Additional observations from a re-analysis of the deposited data

How the results depend on the processing

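The count of 1 member called higher was the same with pseudocounts of 0.1 and 0.5, with a filter at 2 FPKM and after rescaling. It was 0 with no filter, 0 to 2 with a library left out, and 9 in the fit with the replicate number as a block, which called 9.75% of all genes higher. The count of members called lower was 0 in every fit run. All calls numbered 618, and 266 with no filter, 1 to 580 with a library left out and 2353 with the replicate block. The 9 members called with the block were Rtp4, Ifit3, Irf9, H2-K1, B2m, Irf7, Ifi44, Ddx58 and Gbp3. Differences between replicates 2 and 3 correlated across genes between the genotypes (Pearson 0.403 over 13966 genes). The replicate number goes with the labelled cre name in both genotypes, but whether these names stand for separate drivers is not clear. The labels do not say that equal numbers mark a shared animal, litter or day, so the numbers are not taken as pairs in the main fit. The median of the tested members, 0.27, was 0.32 with a pseudocount of 0.1, 0.21 after rescaling (all genes shifted by -0.06) and 0.24 to 0.31 with a library left out. Some directions turned, of genes with overlapping genotypes: Oasl2 was at -0.02 after rescaling, and with a library left out the ranges were -0.03 to 0.12 for Oasl2, -0.21 to 0.03 for Ifit2, -0.16 to 0.06 for Oas1a, -0.27 to 0.03 for Gbp2, -0.13 to 0.11 for Parp14, -0.14 to 0.02 for Dhx58, -0.14 to 0.29 for Psmb9, -0.12 to 0.36 for Bst2 and -0.19 to 0.48 for Xaf1. The cause was not tested. Others kept their direction but moved by over 1.5 times with a library left out: Zbp1 (0.14 to 0.48), Stat2 (0.01 to 0.22), Usp18 (0.15 to 0.38), Ifit1 (0.21 to 0.66), Rsad2 (0.09 to 0.22), Ifi27l2a (0.36 to 1.0), B2m (0.21 to 0.64), Tap1 (0.15 to 0.37) and Psmb8 (0.10 to 0.39). When a library is left out its group has 1 sample, assumed to vary like the other group. Testing the genes kept over all 4 libraries was added after seeing the data, and gave 354 calls, 0 of members, without wild-type replicate 2, with Xaf1 at -0.11, and a members' median of 0.30 without wild-type replicate 3.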
